A study of Mus musculus with 16 samples.

Results

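Cdh22, Thy1, Tmem59l, Hid1, Reep2, Coro2a, Snap91, Kif1a and Susd4 are 9 genes whose RNA was lower in mouse cells with a hairpin against Beclin1 (shBeclin1) than in cells with the hairpin labelled shNT at each of 4 points of a differentiation series. They were chosen on those differences, so the differences of these 9 genes between hairpins are given below as a description and without a p-value. Where calls on them are counted, the counts restate the choice and are no support for it. They make 9 of 54052 entries in the count table and 9 of the 19141 genes that passed the filter on low counts, so no member was lost to the filter. Kif1a, Snap91, Hid1 and Tmem59l have known roles in membrane traffic or are enriched in brain, Cdh22, Thy1 and Susd4 encode proteins with an extracellular part, Reep2 encodes a protein of the endoplasmic reticulum and Coro2a one of the actin cytoskeleton.

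RNA was sequenced from the mouse embryonic stem cell line ES-E14TG2a, with the genotype given as WT, carrying either hairpin, in 16 libraries that form 8 groups of 2. With each hairpin there are undifferentiated cells of day 0, day 4 embryoid bodies, day 10 cells named CM (CM below) and day 10 cells named CM without GF (CM without GF below). GF is not spelled out, a tissue tag reads heart for every sample, and the batch tag repeats the group, so that batch and group cannot be told apart. The descriptions do not state that the 2 replicates of a group were separate cultures, so p-values may cover technical spread alone, and loss of Becn1 and any other effect of the hairpin or its carrier line cannot be told apart.

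In GRCm38 the 9 genes lie on 7 chromosomes. Cdh22 is at chr2:165111507-165234853, Thy1 at chr9:44043384-44048579, Tmem59l at chr8:70483867-70487358, Hid1 at chr11:115347707-115367756, Reep2 at chr18:34840589-34847463, Coro2a at chr4:46536937-46602202, Snap91 at chr9:86765923-86880654, Kif1a at chr1:93015464-93101951 and Susd4 at chr1:182763860-182896591. All are protein coding. Only Coro2a shares exon bases with another annotated gene, 5.09% of them, with Gm16731 on the opposite strand.

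Neurons move vesicles from the cell body to the synapse with kinesin motors, load them at the Golgi, and retrieve their membrane at the synapse through clathrin adaptors. Several genes of this machinery are kept low outside neurons by the repressor Rest, which binds a DNA element in neuronal genes and recruits corepressors. The Becn1 product, Beclin1, belongs to lipid kinase complexes used in autophagy and in endosomal traffic.

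Total counts per library ran from 14967744 to 21422980. Levels below are CPM after TMM scaling of the library totals, and values given as a pair are replicate 1 and replicate 2. A gene was called changed at a Benjamini-Hochberg adjusted p under 0.05 in edgeR's quasi-likelihood test over all 19141 genes, and rose or fell is written only of such calls. Becn1 itself was at 43.7% of its shNT level at day 0 (adjusted p = 2.42e-13), 49.8% at day 4 (adjusted p = 6.23e-13), 62.1% in CM (adjusted p = 1.77e-09) and 70.8% in CM without GF (adjusted p = 5.17e-07); 43.9% of its exon bases also lie under Cntd1 on the opposite strand. The replicates of day 0 shNT and of CM without GF shBeclin1 stood further apart than the others, their counts differing by 7.91 and 7.62 in chi-square over its degrees of freedom against 1.42 to 2.96 in the other 6 groups. The labelled cell type was met in part: summed CPM of 10 cardiomyocyte markers was 4803 to 5174 in CM shBeclin1 and 3450 to 6381 in CM without GF shBeclin1, but 59.6 to 67.3 and 57.6 to 63.9 in the matching shNT libraries.

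Start-site windows of 300 bases from RefSeq (GRCm38.p6), reaching from 250 bases upstream into the first 50 transcribed bases, were held for 6 of the 9 genes in 9 windows. Thy1, Hid1 and Reep2 had no entry. Because the 9 genes were lower together, the part upstream of the annotated start is shown for Cdh22, Tmem59l, Snap91 and Kif1a, 5′ to 3′ on the gene's strand. Capitals mark a GC box (GGGCGG on either strand) or a cyclic AMP response element (TGACGTCA).
Cdh22, chr2:165234854-165234987, minus strand: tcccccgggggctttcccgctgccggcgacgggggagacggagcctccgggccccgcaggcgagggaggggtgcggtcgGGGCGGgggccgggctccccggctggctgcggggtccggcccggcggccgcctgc
Tmem59l, chr8:70487359-70487598, minus strand: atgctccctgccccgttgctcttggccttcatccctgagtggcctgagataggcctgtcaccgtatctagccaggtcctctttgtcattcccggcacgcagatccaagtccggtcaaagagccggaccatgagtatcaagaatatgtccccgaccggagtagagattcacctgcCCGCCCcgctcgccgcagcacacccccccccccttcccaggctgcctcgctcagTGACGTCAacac
Snap91, chr9:86880709-86880958, minus strand: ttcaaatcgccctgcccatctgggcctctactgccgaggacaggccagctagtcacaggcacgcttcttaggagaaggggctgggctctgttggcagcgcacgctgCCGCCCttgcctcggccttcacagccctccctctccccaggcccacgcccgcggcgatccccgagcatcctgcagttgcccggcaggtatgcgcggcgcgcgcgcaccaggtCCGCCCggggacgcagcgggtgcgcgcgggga
Kif1a, chr1:93101952-93102124, minus strand: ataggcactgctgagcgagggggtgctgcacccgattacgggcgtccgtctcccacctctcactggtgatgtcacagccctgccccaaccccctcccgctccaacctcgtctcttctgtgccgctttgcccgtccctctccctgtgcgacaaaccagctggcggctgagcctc

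The GC box was found in 6 of the 9 windows, those of 5 genes, Cdh22, Tmem59l, Coro2a, Snap91 and Susd4, and in 35.7% of all 32851 windows. TGACGTCA was found in the Tmem59l window and in 1.79% of all windows. The left part of the Rest element, TTCAGCACC, which 0.371% of all windows held, and its right part, GGACAGCG, which 1.26% held, were searched on both strands and were in none of the 9 member windows, which says only that these letters are not in those 300 bases. The share of G and C in the 9 windows ran from 50% in the second Coro2a window to 81.3% in the first Susd4 window, beside a median of 52.7% over all windows. CpG dinucleotides numbered 50 in the first Susd4 window, 43 in the first Coro2a window, 38 in Cdh22, 35 in Snap91, 24 in the first Kif1a window, 20 in Tmem59l and 12 in the second Susd4 window, beside a median of 7. The second Coro2a window held 3 and the second Kif1a window 1.

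The hairpin difference by which the 9 were chosen varied in size. At day 0 the 9 log2 folds of shBeclin1 against shNT ran from -0.65 for Susd4 to -1.42 for Cdh22 and Tmem59l, with a median of -0.94. The median was -0.97 at day 4, -1.61 in CM and -1.85 in CM without GF, while the median over all genes tested was -0.01, 0.02, -0.02 and -0.01. All 9 were called lower at each of the 4 points, which restates how they were chosen. Their hairpin groups of 2 libraries also did not overlap at any point, but the share of all genes for which that holds was not counted. Of all genes tested, 7.55% were called lower at day 0, 10.1% at day 4, 19.1% in CM and 27.3% in CM without GF, and 0.308% (59 genes) at all 4 points. Summed over the 9 genes, the level was 49 CPM in shNT and 28.3 CPM in shBeclin1 at day 0, 214 and 85.9 CPM at day 4, 151 and 78.8 CPM in CM, and 151 and 50.3 CPM in CM without GF.

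Among the 59 genes, ordered by their weakest fall over the 4 points, the 9 held ranks 1, 4, 5, 7, 8, 9, 10, 11 and 13. Non-members between them included Chrd (-1.15), Chrna4 (-0.90) and H2-D1 (-0.78), and just outside came Myh14 at -0.62, beside Susd4 at -0.65 just inside. How many of the 9 were called at all 4 points depended on single libraries: 9 with all libraries, but 1 without day 0 shBeclin1 replicate 2, 3 without day 0 shNT replicate 1, 4 without day 0 shBeclin1 replicate 1 and 4 without day 4 shBeclin1 replicate 2. Leaving out other libraries gave 6 to 9, DESeq2 gave 6, and in each of these fits every member that was tested stayed below shNT at every point.

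**Figure D1:**
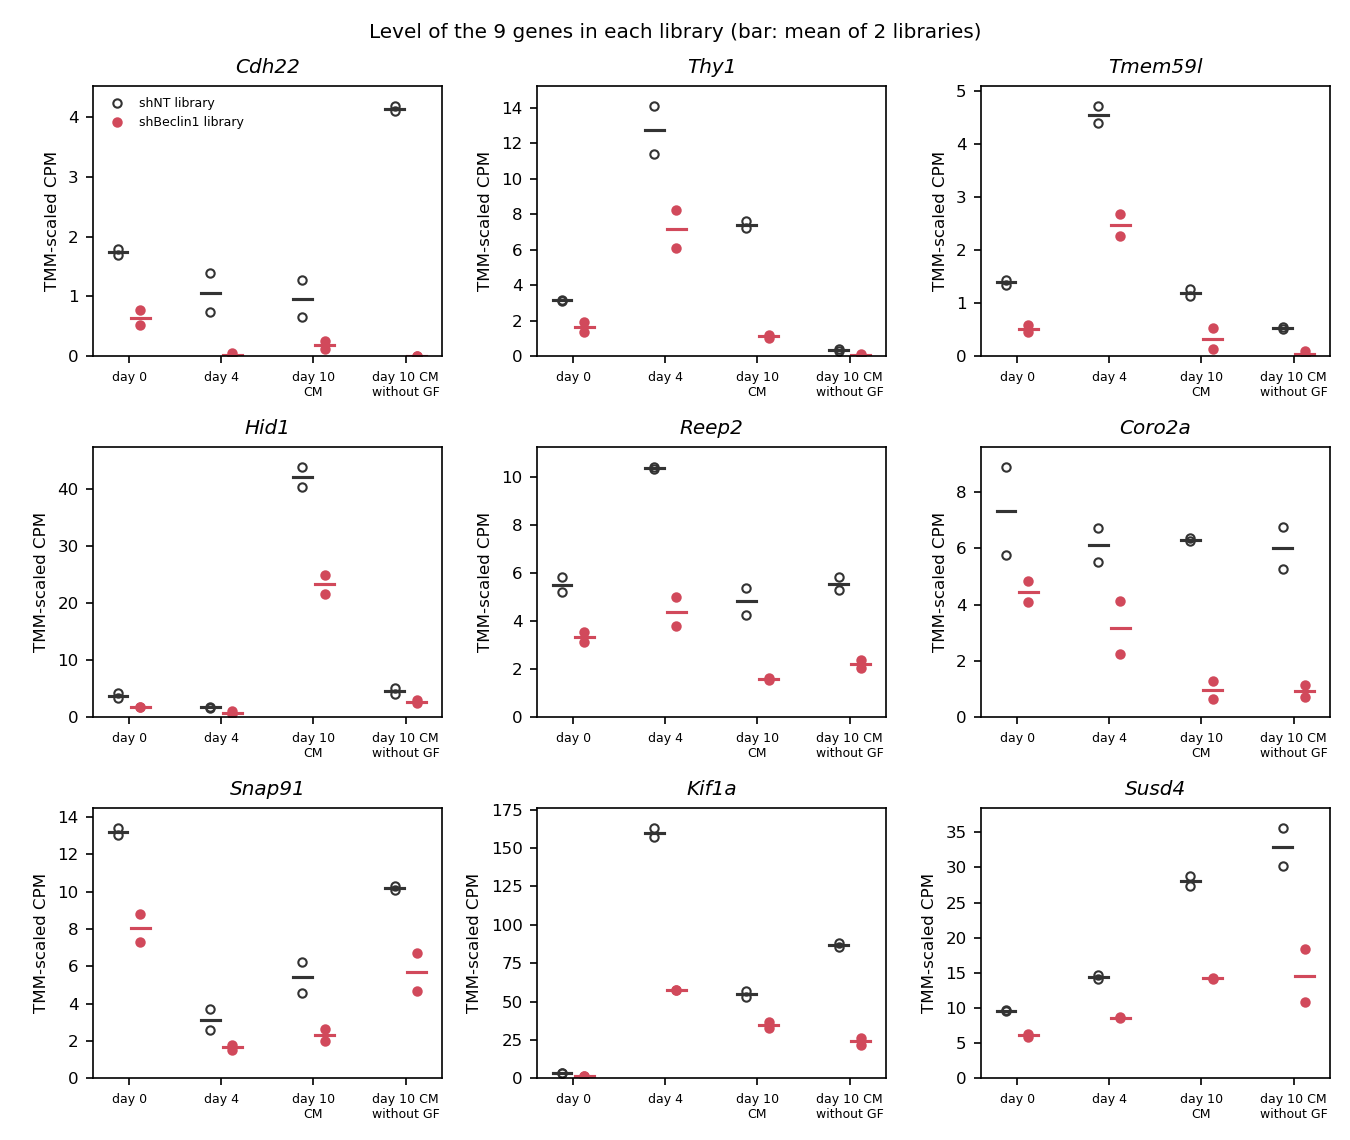
Level of each of the 9 genes (y axis, TMM-scaled CPM from 0) at the 4 points (x axis); open circles are shNT libraries, filled circles shBeclin1 libraries and bars the mean of the 2 libraries. Every shBeclin1 library lies below both shNT libraries of its point. How the height of the pair changes with the point is not the same for all genes. In shNT, Kif1a goes from 3.39 and 3.2 CPM at day 0 to 163 and 157 CPM at day 4, while Coro2a lies between 5.27 and 8.88 CPM in all libraries.

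**Figure D2:**
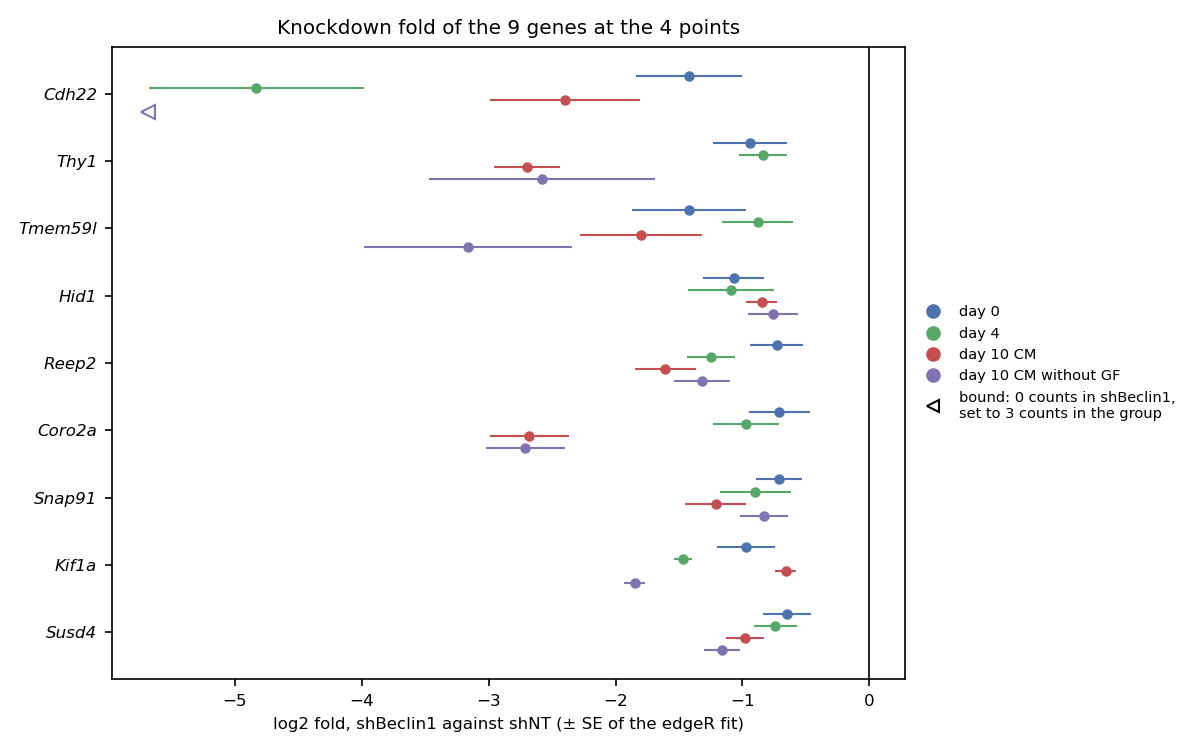
Log2 fold of shBeclin1 against shNT (x axis) for each gene (y axis) at the 4 points, with the standard error of the edgeR fit as bars; the open triangle is a bound, since Cdh22 had 0 counts in CM without GF shBeclin1 and the floor of 3 counts over the group was used. The day 0 folds lie between -0.65 and -1.42. Day 4 runs from -0.74 for Susd4 to -4.83 for Cdh22, and the 2 day 10 cultures also spread more widely than day 0.

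Cdh22, a type II cadherin and so a calcium-dependent adhesion protein, was a low-count gene. It had the widest log2 hairpin difference of the 9 at day 4 and in CM without GF. At day 0 it and Tmem59l were both at -1.42, and in CM it was at -2.40, beside -2.70 for Thy1 and -2.68 for Coro2a. Its shNT libraries held 1.79 and 1.69 CPM at day 0, 1.39 and 0.74 at day 4, 1.27 and 0.661 in CM, and 4.09 and 4.18 in CM without GF. Its shBeclin1 libraries held 0.521 and 0.77 CPM at day 0, 0 and 0.0557 at day 4, 0.257 and 0.117 in CM, and 0 in both libraries without GF. Only the CM without GF pair of shNT lay above 4 CPM, and no hairpin pair overlapped. The 0 in the last group was against 139 counts in the 2 shNT libraries, which with a floor of 3 counts over the group was at least 51.5-fold lower. At day 4 it was 1 count against 31, a ratio of 35 with a 95% counting interval of 5.84 to 1428 that covers counting error only. The fitted log2 difference there, -4.83, was -4.08 without day 4 shBeclin1 replicate 1 and -7.16 without replicate 2. Without CM shNT replicate 1 its CM difference was -1.80 in place of -2.40, and without CM shBeclin1 replicate 1 it was -3.02.

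Within shNT, Cdh22 rose 3.88-fold from day 4 to CM without GF (adjusted p = 5e-06) and was 4.11-fold lower in CM than in CM without GF (log2 -2.04 ± 0.33 SE, adjusted p = 1.79e-06), or log2 -2.63 without CM shNT replicate 1. Its day 4 and CM shNT libraries overlapped, with an adjusted p of 0.865. In shBeclin1 it fell from 20 counts at day 0 to 1 at day 4, a ratio of 21.3 with a counting interval of 3.41 to 884 (adjusted p = 0.000251). The fitted log2 fold of -4.11 was -3.37 without day 4 shBeclin1 replicate 1 and -6.44 without replicate 2. In the cultures, CM held 6 counts where CM without GF held 0, at least 2.29-fold higher (adjusted p = 0.0227). That last call rests on very few counts and was lost when CM shBeclin1 replicate 1 was left out (adjusted p = 0.131) or either CM without GF shBeclin1 library (0.0847 and 0.102), and with only the 4 compared libraries (0.0816). Ordered by level, CM without GF shNT came first, beyond the spread of day 0 shNT, and the neighbouring day 4 shNT, CM shNT and day 0 shBeclin1 groups were not separated beyond their spread.

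Thy1 (CD90), a surface protein of the immunoglobulin superfamily held by a lipid anchor and found on neurons, thymocytes and fibroblasts, peaked at day 4 under both hairpins. The shNT libraries held 3.2 and 3.14 CPM at day 0, 11.4 and 14.1 at day 4, 7.22 and 7.63 in CM, and 0.434 and 0.286 in CM without GF. The shBeclin1 libraries held 1.95 and 1.35 CPM at day 0, 8.24 and 6.12 at day 4, 1.22 and 1.05 in CM, and 0.114 and 0 in CM without GF. Its log2 hairpin difference was -0.94 ± 0.29 SE at day 0, -0.84 ± 0.19 at day 4 and -2.70 ± 0.26 in CM. In CM without GF it rested on 2 counts against 12, a ratio of 6.67 with a counting interval of 1.49 to 61.4, and the fitted log2 value of -2.58 was -5.61 without shBeclin1 replicate 1 and -1.59 without replicate 2 of that group.

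Thy1 rose 4.03-fold from day 0 to day 4 in shNT (adjusted p = 1.61e-10) and 4.32-fold in shBeclin1 (adjusted p = 2.52e-09). From day 4 to CM it fell under both hairpins, 1.72-fold in shNT (adjusted p = 0.000286) and 6.25-fold in shBeclin1 (adjusted p = 3.52e-11). In CM without GF it fell further, 35.1-fold below day 4 in shNT (adjusted p = 3.25e-17), and 2 counts against 234 in shBeclin1 gave a ratio of 132 with a counting interval of 36.2 to 1099. The fitted log2 fold of -6.87 was -9.90 and -5.88 without replicate 1 and replicate 2 of CM without GF shBeclin1. CM was above CM without GF 20.3-fold in shNT (adjusted p = 4.91e-14), the widest culture difference of the 9 genes in shNT. In shBeclin1 37 counts in CM against 2 gave a ratio of 21.2 with a counting interval of 5.46 to 181 (adjusted p = 3.59e-06). That fitted log2 fold, 4.23, was 7.25 without CM without GF shBeclin1 replicate 1 and 3.23 without replicate 2. Only CM shNT and day 4 shBeclin1 were neighbours in level that did not differ beyond their spread.

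Susd4, a sushi-domain protein that inhibits complement, was the member with the smallest hairpin difference at day 0 and day 4. Its mean was higher at day 4 than at day 0, and higher again in each day 10 culture. Its shNT libraries held 9.71 and 9.54 CPM at day 0, 14.7 and 14.1 at day 4, 28.8 and 27.3 in CM, and 35.6 and 30.2 in CM without GF. Its shBeclin1 libraries held 5.92 and 6.35 CPM at day 0, 8.7 and 8.51 at day 4, 14.1 and 14.3 in CM, and 10.8 and 18.4 in CM without GF. Under each hairpin the means were ordered, from low to high, as day 0, day 4, CM and CM without GF. The last 2, both of day 10, were not called different (adjusted p = 0.158 in shNT and 0.845 in shBeclin1). CM shBeclin1, day 4 shNT and CM without GF shBeclin1 were not separated beyond their spread.

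In shNT, Susd4 rose 1.49-fold from day 0 to day 4 (adjusted p = 0.00392), 1.95-fold from day 4 to CM (adjusted p = 1.54e-06) and 2.28-fold from day 4 to CM without GF (adjusted p = 4.48e-08). The shBeclin1 steps were 1.40-fold (adjusted p = 0.0295), 1.65-fold (adjusted p = 0.00044) and 1.71-fold (adjusted p = 0.000162). The first of these did not pass when any of its 4 libraries was left out (adjusted p 0.0716 to 0.135), and the third did not pass without CM without GF shBeclin1 replicate 2 (adjusted p = 0.0673). The comparison of the cultures in shBeclin1 turned on which library was kept: -0.05 with both, -0.37 (adjusted p = 0.025) without CM without GF shBeclin1 replicate 1 and 0.40 (adjusted p = 0.0353) without replicate 2.

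Kif1a, a kinesin-3 motor that carries synaptic vesicle precursors and dense core vesicles along axons, had the highest level of the 9 and the steepest rise. With shNT it was at 3.39 and 3.2 CPM at day 0, 163 and 157 at day 4, 57 and 53 in CM, and 85.6 and 87.9 in CM without GF. With shBeclin1 it was at 1.82 and 1.54 CPM at day 0, 57.7 and 57.5 at day 4, 36.9 and 32.7 in CM, and 22 and 26 in CM without GF. Every neighbouring pair of groups in its order of levels was separated beyond the spread of the libraries. Per kilobase of exon its day 4 shNT level, 17.1 RPKM, was the highest of any member in any group, and the next gene was Hid1 in CM shNT at 9.14 RPKM.

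Kif1a rose 48.5-fold from day 0 to day 4 in shNT (log2 5.60 ± 0.11 SE, adjusted p = 5.65e-32) and 34.1-fold in shBeclin1 (log2 5.09 ± 0.13 SE, adjusted p = 4.04e-28). It then fell under both hairpins, to 34.4% of day 4 in CM shNT (adjusted p = 2.66e-20) and 60.4% in CM shBeclin1 (adjusted p = 3.88e-10). In CM without GF it fell to 54.2% of day 4 in shNT (adjusted p = 1.49e-13) and 41.8% in shBeclin1 (adjusted p = 3.16e-16). The cultures were thus ordered in opposite ways: CM was below CM without GF in shNT (log2 -0.65 ± 0.07 SE, adjusted p = 1.82e-09) and above it in shBeclin1 (log2 0.53 ± 0.09 SE, adjusted p = 5e-06). Its log2 hairpin difference was -0.66 ± 0.08 SE in CM and -1.85 ± 0.08 in CM without GF.

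Snap91 (AP180), an adaptor that assembles clathrin coats on synaptic vesicle membrane, moved against Kif1a between day 0 and day 4. With shNT it was at 13.0 and 13.4 CPM at day 0, 3.69 and 2.56 at day 4, 4.55 and 6.25 in CM, and 10.1 and 10.3 in CM without GF. With shBeclin1 it was at 8.79 and 7.31 CPM at day 0, 1.53 and 1.78 at day 4, 2.64 and 1.99 in CM, and 4.67 and 6.72 in CM without GF. CM without GF shBeclin1 and CM shNT overlapped, as did day 4 shNT and CM shBeclin1.

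Snap91 fell 4.22-fold from day 0 to day 4 in shNT (adjusted p = 4.38e-11) and 4.82-fold in shBeclin1 (adjusted p = 1.68e-10). It rose again from day 4 to CM without GF, 3.27-fold in shNT (adjusted p = 5.88e-09) and 3.43-fold in shBeclin1 (adjusted p = 5.53e-08). From day 4 to CM it rose 1.71-fold in shNT (adjusted p = 0.00298), which did not pass without day 4 shNT replicate 2 (adjusted p = 0.0943) or CM shNT replicate 2 (adjusted p = 0.0686), and in shBeclin1 the 1.38-fold difference was not called (adjusted p = 0.155). CM was below CM without GF in both, to 52.2% in shNT (adjusted p = 5.17e-05) and 40.3% in shBeclin1 (adjusted p = 1.89e-05).

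Hid1, a Golgi protein needed for dense core vesicle formation, had the widest rise of the 9 from day 4 to CM under both hairpins. Under shNT the level was 4.28 and 3.33 CPM at day 0, 1.88 and 1.61 at day 4, 43.8 and 40.3 in CM, and 4.16 and 5.15 in CM without GF. Under shBeclin1 the level was 1.76 and 1.86 CPM at day 0, 1.06 and 0.612 at day 4, 21.6 and 24.9 in CM, and 2.51 and 2.98 in CM without GF. Both CM groups lay above all other groups of either hairpin, and its log2 hairpin difference ran from -0.76 ± 0.20 SE in CM without GF to -1.09 ± 0.34 at day 4.

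Hid1 rose 24-fold from day 4 to CM in shNT (adjusted p = 3.98e-23) and 28.2-fold in shBeclin1 (adjusted p = 1.18e-21). Without GF the rise was 2.67-fold (adjusted p = 1.92e-06) and 3.34-fold (adjusted p = 2.12e-06), so that CM exceeded CM without GF 9-fold in shNT and 8.43-fold in shBeclin1 (adjusted p = 3.15e-20 and 6.78e-18). From day 0 to day 4 it fell 2.17-fold in shNT (adjusted p = 0.000149) and 2.20-fold in shBeclin1 (adjusted p = 0.0029), the latter not passing without day 4 shBeclin1 replicate 2 (adjusted p = 0.0912).

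Tmem59l, a brain-enriched membrane protein related to Tmem59, followed Thy1 in shape at a lower level. Under shNT the level was 1.34 and 1.44 CPM at day 0, 4.39 and 4.71 at day 4, 1.14 and 1.26 in CM, and 0.558 and 0.515 in CM without GF. Under shBeclin1 the level was 0.586 and 0.449 CPM at day 0, 2.26 and 2.67 at day 4, 0.129 and 0.527 in CM, and 0 and 0.101 in CM without GF. The 2 counts of the last group against 18 in shNT gave a ratio of 10 with a counting interval of 2.4 to 88.9. The fitted log2 difference in CM, -1.80, was -1.17 without shBeclin1 replicate 1 and -3.14 without replicate 2 of that group, and in CM without GF -3.16 was -2.32 and -6.17. Day 0 shBeclin1 was not separated from CM without GF shNT just above it or from CM shBeclin1 just below.

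Tmem59l rose 3.26-fold from day 0 to day 4 in shNT (adjusted p = 8.56e-06) and 4.74-fold in shBeclin1 (adjusted p = 6.72e-06). From day 4 to CM it fell 3.80-fold in shNT (adjusted p = 7.19e-07) and 7.22-fold in shBeclin1 (adjusted p = 2.94e-07; log2 -2.85, or -2.22 and -4.19 without replicate 1 and replicate 2 of CM shBeclin1). It also fell from day 4 to CM without GF, 8.39-fold in shNT (adjusted p = 1.83e-09). In shBeclin1 that step went from 82 counts to 2, a ratio of 46.4 with a counting interval of 12.4 to 389 (adjusted p = 3.24e-10). Its fitted log2 fold of -5.35 was -4.52 and -8.36 without replicate 1 and replicate 2 of CM without GF shBeclin1. CM was above CM without GF 2.21-fold in shNT (adjusted p = 0.0246) and by 11 counts to 2 in shBeclin1, a ratio of 6.3 with a counting interval of 1.37 to 58.4 (adjusted p = 0.0293). Neither culture call was firm. DESeq2 did not make them (adjusted p 0.0664 in shNT and 0.0725 in shBeclin1). In edgeR the shNT one did not pass when any of its 4 libraries was left out (adjusted p 0.0591 to 0.111), nor the shBeclin1 one without CM shBeclin1 replicate 2 (0.571) or CM without GF shBeclin1 replicate 1 (0.204), nor with only the 4 compared libraries (0.122). The fitted log2 fold in shBeclin1, 2.50 with all libraries, ranged from 1.16 without CM shBeclin1 replicate 2 to 5.51 without CM without GF shBeclin1 replicate 2.

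Reep2, a protein that shapes tubules of the endoplasmic reticulum, was highest in day 4 shNT. Its CPM in shNT was 5.82 and 5.21 at day 0, 10.4 and 10.3 at day 4, 5.38 and 4.27 in CM, and 5.83 and 5.27 in CM without GF. Its CPM in shBeclin1 was 3.12 and 3.53 at day 0, 4.98 and 3.78 at day 4, 1.54 and 1.64 in CM, and 2.05 and 2.38 in CM without GF. The shNT groups at day 0, CM and CM without GF overlapped, and day 4 shBeclin1 was not separated from CM shNT.

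Reep2 rose 1.88-fold from day 0 to day 4 in shNT (adjusted p = 4.09e-05), while the 1.31-fold difference in shBeclin1 was not called (adjusted p = 0.115; without day 4 shBeclin1 replicate 2 it was 0.0492). It fell from day 4 to CM, 2.12-fold in shNT (adjusted p = 1.69e-06) and 2.72-fold in shBeclin1 (adjusted p = 2.57e-06). From day 4 to CM without GF it fell 1.86-fold in shNT (adjusted p = 3.81e-05) and 1.96-fold in shBeclin1 (adjusted p = 0.000238). The cultures were not called different under either hairpin (adjusted p = 0.435 and 0.176).

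Coro2a, a coronin that binds actin and has been found with the NCoR corepressor, was the member with no called step in shNT. Its CPM in shNT was 8.88 and 5.77 at day 0, 5.51 and 6.73 at day 4, 6.35 and 6.25 in CM, and 5.27 and 6.76 in CM without GF. Its CPM in shBeclin1 was 4.82 and 4.1 at day 0, 4.12 and 2.23 at day 4, 0.644 and 1.29 in CM, and 1.14 and 0.708 in CM without GF. All 4 shNT groups overlapped, and no step within shNT was called (adjusted p 0.338 to 0.947).

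In shBeclin1, Coro2a fell 3.17-fold from day 4 to CM (adjusted p = 0.000113) and to 29.5% from day 4 to CM without GF (adjusted p = 4.05e-05). Without CM shBeclin1 replicate 2 the first was log2 -2.26 in place of -1.66, and the hairpin difference in CM -3.28. The step from day 0 to day 4 in shBeclin1 was not called (1.43-fold lower, adjusted p = 0.0946), but was called in edgeR without day 4 shBeclin1 replicate 1 (adjusted p = 0.00925), with total counts as the scaling (0.0334), with no filter on low counts (0.032) and with only the 4 compared libraries (0.0126). The log2 hairpin difference was -0.71 ± 0.24 SE at day 0, -0.97 ± 0.26 at day 4, -2.68 ± 0.31 in CM and -2.71 ± 0.31 in CM without GF.

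The 9 genes did not change in a single direction between days or cultures. From day 0 to day 4 in shNT 5 of the 9 rose, beside 34.3% of all genes tested, and 2 fell, beside 32.6%. In shBeclin1 4 rose, beside 35.5%, and 3 fell, beside 32.3%. Thy1, Tmem59l, Kif1a and Susd4 rose and Hid1 and Snap91 fell under both hairpins.

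From day 4 to CM 3 of the 9 rose in shNT, beside 36.8% of all genes, and 4 fell, beside 33.2%. In shBeclin1 2 rose, beside 37.3%, and 5 fell, beside 35.1%. Hid1 and Susd4 were the 2 that rose under both hairpins.

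From day 4 to CM without GF 4 rose in shNT, beside 35.7%, and 4 fell, beside 33%. In shBeclin1 3 rose, beside 38%, and 5 fell, beside 35.8%. Thy1, Tmem59l, Reep2 and Kif1a fell under both hairpins in both day 10 cultures.

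Between the cultures, CM was above CM without GF for 3 genes in shNT, beside 26.9% of all genes, and below for 3, beside 25.9%. In shBeclin1 it was above for 5, beside 20.3%, and below for 1, beside 16.7%; 5 became 3 with only the 4 compared libraries or without CM without GF shBeclin1 replicate 1. Thy1, Tmem59l and Hid1 were higher in CM, and Snap91 lower, under both hairpins.

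**Figure D3:**
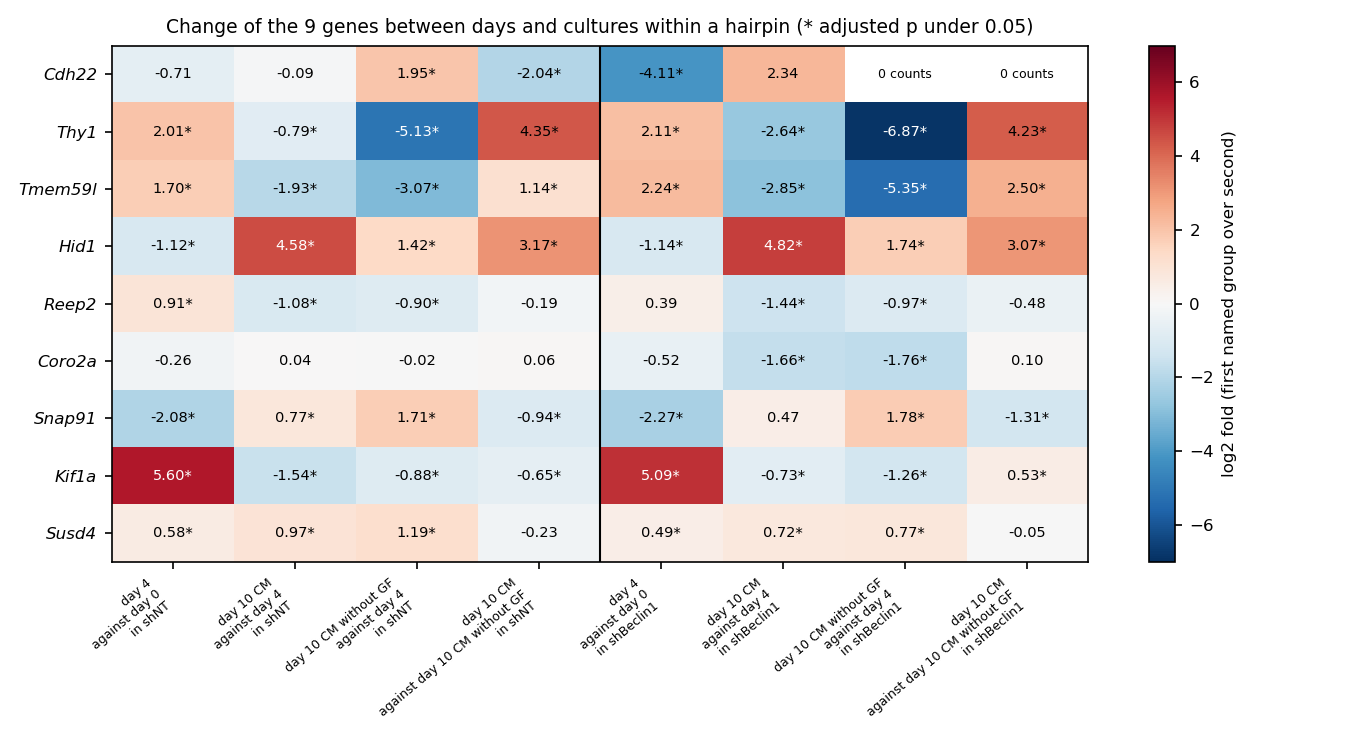
Log2 fold between days or cultures (columns, first named group over second) for each gene (rows), 4 comparisons in shNT to the left of the line and 4 in shBeclin1 to the right; colour and number give the fitted log2 fold, an asterisk an adjusted p under 0.05, and 0 counts a comparison with a group that held no count. Columns differ in sign from gene to gene: from day 0 to day 4 Kif1a was at 5.60 and Snap91 at -2.08 in shNT, and Coro2a had no asterisk in shNT.

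Over the 8 group means, Pearson correlations of log2 CPM between the members ran from -0.54 (Snap91 and Kif1a) to 0.92 (Thy1 and Tmem59l) over 36 pairs, with a median of 0.19 and 11 pairs below 0. All pairs share the hairpin difference by which they were chosen. Outside the 9, and among genes whose log2 CPM averaged 2 or more, Odad1 (r = 0.931), Gla (0.923), Wnk2 (0.887), Prr36 (0.885) and Iqgap2 (0.876) had 8 group means most like the mean profile of the 9, a description over 8 groups. That mean profile carries the hairpin difference by which the 9 were chosen, so the ranking favours genes with the same difference. Wnk2, for example, stood at 14 CPM in CM shNT and 1.13 CPM in CM shBeclin1. Iqgap2 was not lower at every point, with 63.2 CPM in day 0 shNT and 71.3 CPM in day 0 shBeclin1.

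Markers of neurons were lower in shBeclin1 at day 4 and in both day 10 cultures, and not at day 0. Summed CPM of 12 neuron markers was 1417 to 1488 in CM without GF shNT and 69.1 to 80.3 in the matching shBeclin1 libraries, with 11 of 12 called lower and 1 higher. It was 183 to 195 against 44.7 to 52 in CM, with 9 lower and 1 higher, and 196 to 197 against 131 to 143 at day 4, with 7 lower and 0 higher by edgeR, by DESeq2 and at an unadjusted p under 0.05. At day 0 it was 223 to 237 in shNT and 273 to 275 in shBeclin1. Most of this was Stmn2, with means of 164 and 196 CPM. By edgeR 3 of the 12 were called higher and 0 lower (4 higher and 3 lower at an unadjusted p under 0.05, 3 higher and 1 lower by DESeq2). Dcx was at 0 under both hairpins. In these bulk samples fewer cells of a type and less RNA per cell cannot be told apart. What part a change in cell types had in the differences at any of the 4 points was not tested.

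Other marker lists moved too. The 8 neural progenitor markers summed to 43.4 to 50.4 CPM in shNT and 51 to 53.5 in shBeclin1 at day 0, with Fabp7 at 0 in both, and to 255 to 265 against 105 to 110 in CM without GF, where 7 of 8 were called lower, 1 was called higher and Hes5 was at 0 in shBeclin1. The 7 pluripotency markers summed to 3455 to 3665 against 3702 to 3764 CPM at day 0 and to 232 to 251 against 35.6 to 44.2 in CM without GF, with 6 lower and 1 higher. Of the 10 cardiomyocyte markers, 10 were called higher in each day 10 culture.

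Cells of mesenchyme, endothelium and blood can carry Thy1. The 7 mesenchymal markers summed to 55.6 to 56.7 CPM in shNT and 215 to 220 in shBeclin1 at day 4, 1984 to 2199 and 2505 to 2640 in CM, and 1912 to 1954 and 3047 to 3126 in CM without GF. Of the 7 markers, 2 were called higher and 1 lower at day 4, and 3 higher and 3 lower in each day 10 culture. Their median log2 folds were 0.28 at day 4, -0.09 in CM and 0 in CM without GF, so the sums were not shared by all markers. The 6 endothelial markers summed to 895 to 896 CPM in shNT and 939 to 1001 in shBeclin1 in CM. There 2 were called higher and 1 lower, with a median log2 fold of 0.13. In CM without GF they summed to 71.2 to 74 and 286 to 370, and all 6 were called higher with a median log2 fold of 3.09. The 6 blood markers summed to 146 to 147 and 224 to 261 CPM in CM and to 54.5 to 58.1 and 218 to 329 in CM without GF, with 4 of 5 tested called higher and 1 lower in each culture. The part of these cell types in the results was not tested.

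**Figure D4:**
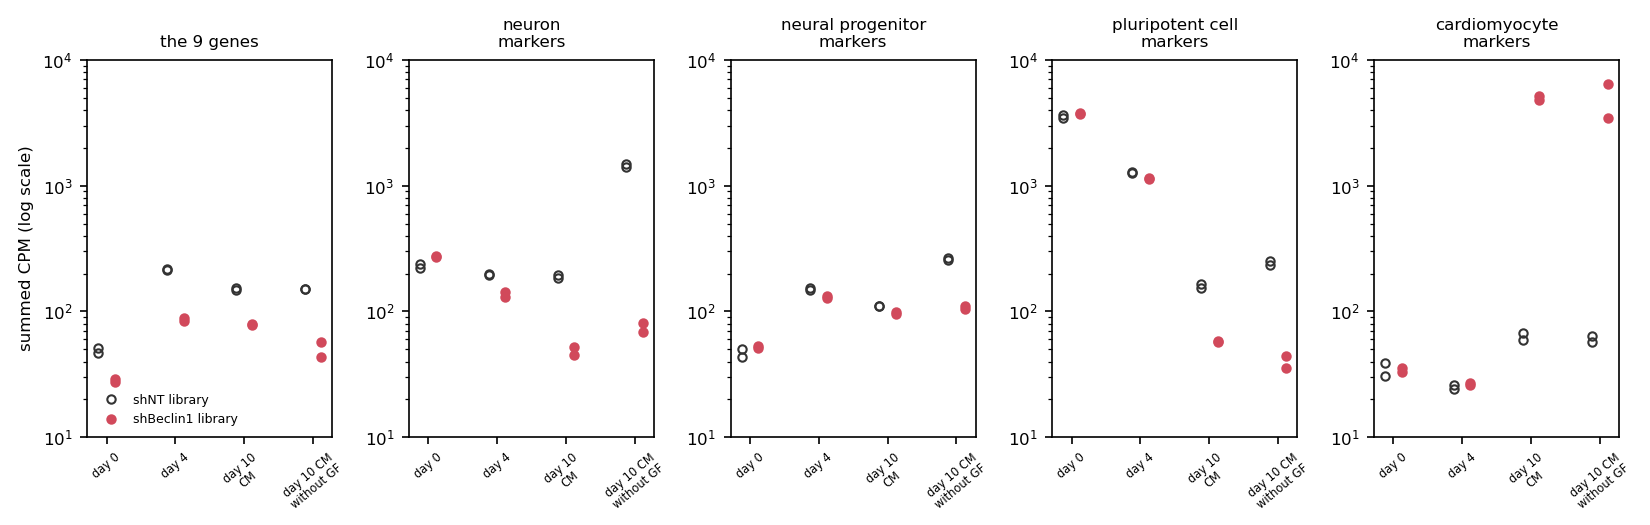
Summed CPM per library (y axis, log scale) of the 9 genes and of 4 marker lists at the 4 points (x axis), open circles for shNT and filled circles for shBeclin1. The 9 genes are lower in shBeclin1 at all points, by which they were chosen. The neuron marker sum, most of it Stmn2 at day 0, is not lower there (223 to 237 against 273 to 275). Cardiomyocyte markers are high only in the day 10 shBeclin1 libraries.

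Relatives of the 9 genes were called in both directions. Relatives here are genes of the same family or pathway as a member. The families were uneven: 11 of the relatives were cadherins, Tmem59l, Hid1 and Snap91 had 1 each, and none was listed for Thy1. Of 36 relatives tested, 1 was called higher and 5 lower at day 0, 7 and 9 at day 4, 11 and 12 in CM, and 13 and 9 in CM without GF. The shares called lower were 13.9%, 25%, 33.3% and 25%, beside 7.55%, 10.1%, 19.1% and 27.3% of all genes. The shares called higher were 2.78%, 19.4%, 30.6% and 36.1%, beside 5.79%, 10.7%, 19.2% and 27.3% of all genes. Their log2 folds had medians of -0.10, -0.11, 0 and 0.15. The day 0 counts became 0 higher and 10 lower with total counts as the scaling, and leaving out a day 0 library gave 0 to 3 higher and 3 to 5 lower (0 and 3 without either shBeclin1 library, 0 higher without shNT replicate 1).

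Cdh2 (N-cadherin) rose at day 4, from 121 ± 1.34 CPM (SD, n = 2) in shNT to 274 ± 11 in shBeclin1 at day 4 (log2 1.18 ± 0.07 SE, edgeR adjusted p = 1.06e-15), and in CM, from 132 to 286 CPM (adjusted p = 5.28e-16). Its day 0 call was weak, 1.52 against 2.58 CPM (adjusted p = 0.0445). It did not pass without shNT replicate 1 (0.365), without shBeclin1 replicate 1 (0.162) or replicate 2 (0.159), with total counts as the scaling (0.0693), with a replicate block (0.0537) or with only the 4 compared libraries (0.115). The type II cadherins split at day 4, where Cdh20 rose (2.3 to 13.4 CPM, adjusted p = 1.06e-10) and Cdh9 fell (7.06 to 1.6 CPM, adjusted p = 3.4e-06). In CM, Cdh6 fell from 51.5 to 13.1 CPM (adjusted p = 2.51e-16), whereas at day 4 it rose from 1.06 to 3.52 CPM (adjusted p = 3.34e-05).

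Among relatives of the traffic genes, Picalm, the widely expressed counterpart of Snap91 in clathrin assembly, rose in CM from 308 to 504 CPM (adjusted p = 7.35e-12). Kif13a, another kinesin-3 motor, rose in CM without GF from 44.4 to 136 CPM (adjusted p = 3.57e-21). Reep5 and Reep6 fell at day 0, from 29.9 to 20.4 and from 51 to 27.8 CPM (adjusted p = 6.92e-05 for each), and Reep3 fell at day 4 from 43.6 to 31.3 CPM (adjusted p = 4.7e-05). In CM without GF, Reep3 rose from 45.1 to 60.9 CPM (adjusted p = 1.17e-05) and Reep5 from 57 to 71.7 CPM (adjusted p = 0.000252). Reep6 fell there from 2.79 to 1.07 CPM (adjusted p = 0.000634).

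For the remaining families, Coro2b and Coro1a, both coronins, fell in CM without GF from 19.5 to 7.72 CPM (adjusted p = 2.16e-11) and from 5.21 to 0.699 CPM (adjusted p = 1.58e-10). They were the exceptions there: of the 6 tested relatives of Coro2a, 4 rose and 2 fell. In CM, 4 rose and 1 fell. Among the tested relatives of Coro2a, Coro2b was the coronin called lower at all 4 points, as Coro2a itself was by its choice. Susd5 fell in CM from 10.2 to 2.12 CPM (adjusted p = 4.41e-12), and Susd1 rose in CM without GF from 3.74 to 28.4 CPM (adjusted p = 1.25e-19). Each went the other way at day 4, where Susd5 rose (adjusted p = 0.0133) and Susd1 fell (adjusted p = 0.0025).

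Among genes that Rest is known to repress, lower calls outnumbered higher ones at each point. Of 42 tested from a list of 44, 9 were called lower and 4 higher at day 0, 18 and 2 at day 4, 24 and 7 in CM, and 36 and 5 in CM without GF. The shares called lower were 21.4%, 42.9%, 57.1% and 85.7%, beside the 7.55%, 10.1%, 19.1% and 27.3% of all genes, with medians of -0.32, -0.55, -1.32 (-1.28 with genes at 0 counts set to their bound) and -2.67. The list shares Snap25, Stmn2, Elavl3 and Tubb3 with the neuron markers, whose sums moved as given above, and Nppa with the cardiomyocyte markers. Since Rest acts on neuronal genes, falls of this list and of the neuron markers at day 4 and day 10 cannot be told apart. The day 0 count of lower genes was 5 by DESeq2, 4 without day 0 shNT replicate 1, 4 without day 0 shBeclin1 replicate 1 and 5 without day 0 shBeclin1 replicate 2; the count of higher genes was 2 without either day 0 shBeclin1 library. Over all genes, the 1446 lower at day 0 became 963 without day 0 shNT replicate 1, 653 without day 0 shBeclin1 replicate 1 and 541 without day 0 shBeclin1 replicate 2.

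At day 0, Dnm1, a dynamin of synaptic vesicle recycling, fell from 21.8 to 12.6 CPM (adjusted p = 1.81e-05), while Ina, a neuronal intermediate filament, rose from 14.2 to 24.3 CPM (adjusted p = 1.86e-05) and Tubb3, neuronal tubulin, from 27.4 to 38.5 CPM (adjusted p = 0.000591). At day 4 Tubb3 was lower in place of higher, 13.9 to 5.27 CPM (adjusted p = 8.38e-10), as was the RNA-binding protein gene Elavl3, 13.8 to 4.06 CPM (adjusted p = 4.84e-10). L1cam, a neural adhesion gene, rose at day 4 from 9.87 to 20.2 CPM (adjusted p = 4.85e-06), and Cplx1, a complexin of vesicle release, from 2.01 to 3.52 CPM (adjusted p = 0.031; 0.113 by DESeq2, 0.283 without day 4 shNT replicate 1 and 0.359 without day 4 shBeclin1 replicate 2).

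In CM the glutamate receptor gene Gria2 fell from 137 to 21.7 CPM (adjusted p = 2.25e-22) and Stmn2, a tubulin-binding stathmin, from 25.9 to 6.46 CPM (adjusted p = 1.11e-17). In CM without GF, Stmn2 fell from 148 to 3.26 CPM (adjusted p = 6.33e-32) and Tubb3 from 151 to 1.63 CPM (adjusted p = 5.92e-31). The rises of smallest adjusted p in the list were those of the potassium channel gene Kcnh2 from 6.87 to 39.6 CPM in CM (adjusted p = 4.87e-18) and from 7.31 to 51.9 CPM without GF (adjusted p = 5.45e-20), and the natriuretic peptide gene Nppa from 0.156 to 30.8 CPM in CM (adjusted p = 8.16e-22). Without GF, Nppa held 3 counts in shNT and 332 in shBeclin1, a ratio of 99.5 with a counting interval of 33.8 to 485 (adjusted p = 2.25e-16). The others called higher in CM were the pacemaker channel gene Hcn4 and the synaptic genes Stx1a, Rab3a, Unc13a and Bsn, and Hcn4, Stx1a and Rab3a were also called higher without GF.

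Rest itself was not called at day 0 (468 CPM in shNT, 505 in shBeclin1, adjusted p = 0.272, or 0.0051 without day 0 shNT replicate 2), day 4 (174 and 170, adjusted p = 0.837) or CM (139 and 146, adjusted p = 0.437), and rose in CM without GF from 89.5 ± 3.59 to 123 ± 4.49 CPM (SD, n = 2; log2 0.46 ± 0.07 SE, adjusted p = 4.49e-07). Of Rest and 20 corepressor genes, 2 were called higher and 3 lower at day 0, 0 and 2 at day 4 (by edgeR; 0 higher by DESeq2 and 2 at an unadjusted p under 0.05), 8 and 3 in CM, and 13 and 4 in CM without GF. The shares called higher were 9.52%, 0%, 38.1% and 61.9%, beside 5.79%, 10.7%, 19.2% and 27.3% of all genes, and those called lower 14.3%, 9.52%, 14.3% and 19%, beside 7.55%, 10.1%, 19.1% and 27.3%. The medians were 0.03, 0.04, 0.05 and 0.25. Rcor1 rose in CM without GF from 45.1 to 86.8 CPM (adjusted p = 7.38e-14) while its relative Rcor2 fell from 69.7 to 36.1 CPM (adjusted p = 3.54e-13). Ncor1, of the corepressor with which Coro2a has been found, rose at day 0 from 292 to 364 CPM (adjusted p = 0.0024), but did not pass without shNT replicate 1 (0.0885) or shBeclin1 replicate 2 (0.0554).

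Smaller changes were called in other corepressor genes at day 0. Sin3b rose from 61.9 to 74.1 CPM (adjusted p = 0.0183), while Rcor2 fell from 57.3 to 46.7 CPM (0.00927) and Phf21a from 52 to 43.4 CPM (0.0119). None of these 3 passed with only the 4 compared libraries or without either shBeclin1 library. Sin3b also missed the threshold without shNT replicate 2 (0.245) and with total counts as the scaling (0.0648), and Rcor2 (0.117) and Phf21a (0.0571) missed it without shNT replicate 1.

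At day 4 Phf21a fell from 69.7 to 51.3 CPM (adjusted p = 4.81e-06). Ctdsp2, a small phosphatase that acts with Rest, fell there from 124 to 106 CPM (adjusted p = 0.0115), but not without shNT replicate 2 (0.28), shBeclin1 replicate 1 (0.0733) or shBeclin1 replicate 2 (0.0711). In CM it rose from 174 to 216 CPM (adjusted p = 9.39e-05), as did Ctdsp1 from 55 to 69.5 CPM (0.000718), while Rcor2 fell from 65 to 41.7 CPM (7.92e-09) and Ctdspl from 73.3 to 47.9 CPM (8.99e-08). In CM without GF, Ctdsp1 rose from 46.2 to 71.2 CPM (2.17e-08) and Sin3a fell from 118 to 91.4 CPM (4.94e-06).

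Small counts in the corepressor list hung on single libraries: the 3 lower at day 0 became 0 without day 0 shNT replicate 1 or without either day 0 shBeclin1 library, and the 8 higher in CM became 3 without CM shBeclin1 replicate 1, 4 without CM shNT replicate 1 and 5 without CM shNT replicate 2. When total counts alone set the scaling, the share of called genes that were higher in shBeclin1 went from 43.4% to 23.9% at day 0, from 51.5% to 38.1% at day 4 and from 50.1% to 36.7% in CM. That share went from 54.9% to 42.2% for CM against CM without GF in shBeclin1 and from 52% to 62.4% for CM without GF against day 4 in shNT. The median of all genes lay between -0.116 and 0.273 over the 12 comparisons, while the 9 genes were below shNT at all 4 points under either scaling.

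**Figure D5:**
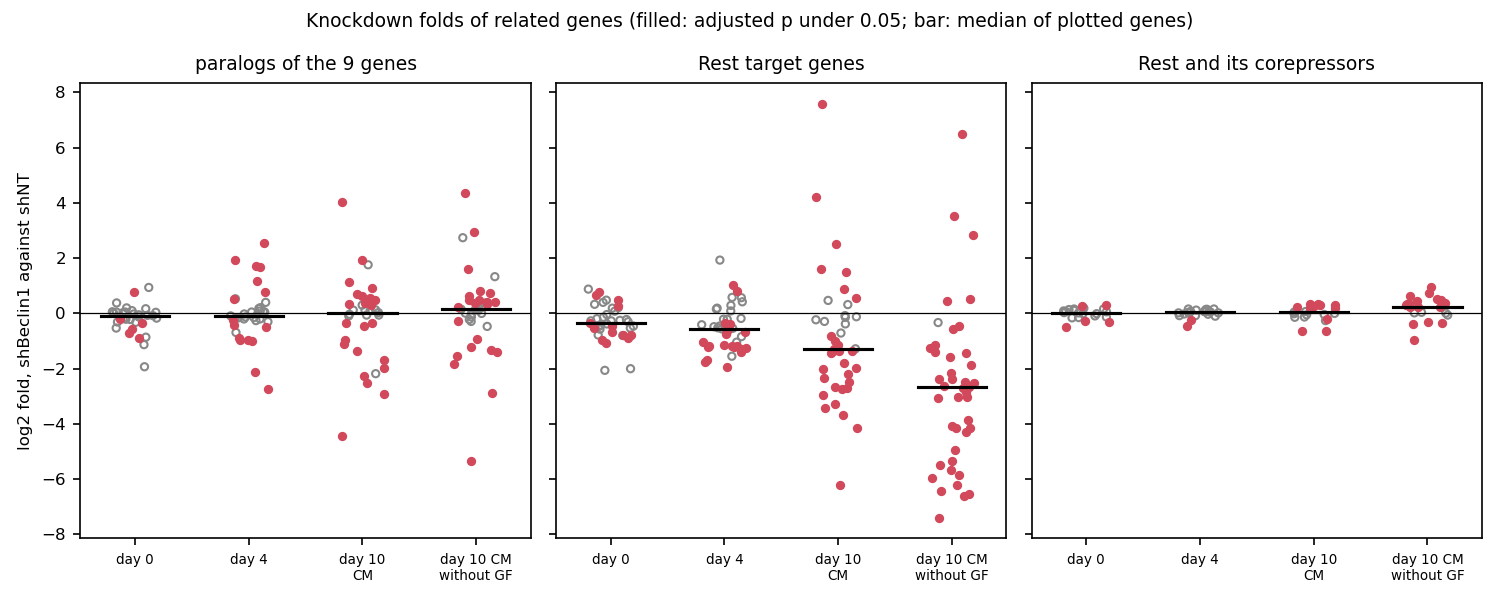
Log2 fold of shBeclin1 against shNT (y axis) at the 4 points (x axis) for each tested gene of 3 lists, leaving out genes with 0 counts in a group; filled points have an adjusted p under 0.05 and bars are medians of the plotted genes. Relatives and corepressors scatter on both sides of 0, while Rest target genes reach medians near -1.3 in CM and -2.67 in CM without GF.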

How the data were processed

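Raw counts per gene symbol, 54052 entries in a column for each of the 16 libraries, are what the authors deposited. The labels' protocols name both rRNA removal and a stranded mRNA kit, while the molecule tag reads polyA RNA, so the RNA fraction is not settled. Per the submitters' processing notes, Trimmomatic 0.36, featureCounts, Subread 1.5.1, SAMtools and the mm10 build were used; aligner, annotation and strand handling were not given in the sources used here. Every column matched a library by name.

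In R 4.3.3, edgeR 4.0.16 filtered genes with filterByExpr, which left 19141, scaled libraries by TMM (factors 0.884 to 1.08) and fitted a robust quasi-likelihood model with 1 mean per group to all 16 libraries (8 residual degrees of freedom, common biological coefficient of variation 5.38%). Alternatives were DESeq2 1.42.0, other scalings and filters, a fit of the 4 compared libraries, a replicate block, and fits without each library. Scripts were tested on simulated data. The 9 genes and all lists were chosen with earlier results of these data known. Beside the 9, Becn1 and Rest, the naming rule took from each list the 2 called genes with the smallest adjusted p per direction and comparison, and the 5 genes of most similar profile; the genes next to the 9 in rank, Coro2b, and the other Rest targets that rose in CM, were named after their values were seen; 1 gene that the rule took is not reported here. Groups at 0 counts were put at 3 counts for bounds, and ratios on 1 to 3 counts carry a 95% counting interval. Gene positions and merged exon lengths are from GENCODE on GRCm38, the sequence of mm10.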

Additional observations from a re-analysis of the deposited data

Results flagged for a closer look

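Kif1a was ordered in opposite ways by the 2 day 10 cultures. In shNT, CM lay below CM without GF, with a log2 fold of -0.65 and every CM library below every library without GF, and in shBeclin1 CM lay above, with a log2 fold of 0.53 and again no overlap. The difference between the hairpins was not tested, because the genes were chosen on the same hairpin contrasts.

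Cdh22 was also ordered in opposite ways, but on few counts. In shNT the log2 fold of CM against CM without GF was -2.04 (40 and 139 counts), while in shBeclin1 CM was at least 2.29-fold higher (6 and 0 counts), a call lost without CM shBeclin1 replicate 1 (adjusted p = 0.131), without either CM without GF shBeclin1 library (0.0847 and 0.102) and with only the 4 compared libraries (0.0816). This difference was not tested either.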

How the results depend on the processing

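All 9 genes stayed below shNT at every point under each alternative that tested them; the strict filter left out Cdh22 and Tmem59l. Leaving out 1 library at a time, counts ranged as follows: CM against CM without GF in shBeclin1, 3 to 5 of the 9 higher and 1 to 2 lower; relatives at day 0, 0 to 3 higher and 3 to 5 lower; Rest targets, 2 to 3 higher and 4 to 9 lower at day 0, 1 to 2 higher at day 4 and 3 to 5 higher in CM without GF; corepressors, 0 to 2 higher and 0 to 2 lower at day 0, 1 to 2 lower at day 4 and 3 to 7 higher in CM. Susd4, CM against CM without GF in shBeclin1, went from -0.05 to 0.40 without CM without GF shBeclin1 replicate 2 and -0.37 without replicate 1. With the strict filter, 2 of the 9 rose from day 0 to day 4 in shBeclin1 (4 in the reported fit), 3 were higher in CM than without GF in shBeclin1 (5), and 2 relatives were higher at day 0 (1). With no filter on low counts, 2 relatives were higher at day 0 and 1 Rest target at day 4 (2). With total counts as the scaling, 0 relatives were higher and 10 lower at day 0 (1 and 5), 1 corepressor was higher at day 0 (2), and 3 were higher and 6 lower in CM (8 and 3). With only the 4 compared libraries, 3 of the 9 were higher in CM than without GF in shBeclin1, 0 relatives were higher at day 0, 14 relatives were lower at day 4 (9), 1 corepressor was higher and 0 lower at day 0 (2 and 3), and 1 was higher and 4 lower at day 4 (0 and 2). By DESeq2, 5 Rest targets were lower at day 0 (9) and 1 higher at day 4 (2). The cause of these moves was not tested, except that the strict filter tested fewer genes. With a replicate block, 1 corepressor was higher at day 4 (0), and 8 of the 9 genes were called lower at all 4 points; no other count moved by over 1.5 times under the block. Over all genes at day 0, 1109 higher and 1446 lower became 382 to 1516 and 541 to 1498 with a library left out, 640 and 837 with only the 4 compared libraries, and 649 higher with total counts; at day 4, 2047 higher became 1180 to 1319 with a library left out and 1928 lower became 2908 with only the 4 compared libraries. Correlations of the replicate differences between groups lay between -0.05 and 0.05 over 28 pairs of groups. These correlations cannot show whether same-numbered libraries shared a culture or a run. Depth limits Cdh22, Tmem59l and Thy1, which held 0 to 18 counts in some groups.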
